A study of Mus musculus with 15 samples.

Results

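The 9 genes described here belong to the MHC class II pathway of antigen presentation and were taken by symbol from the 55359 genes in each table. They are H2-Aa, H2-Ab1, H2-Eb1, H2-DMa, H2-DMb1, H2-Oa, H2-Ob, Cd74 and Ciita. MHC class II molecules are pairs of an alpha and a beta chain that carry peptides from endocytosed proteins to the cell surface, where CD4 T cells read them. The invariant chain Cd74 holds the newly made pair and guides it to endosomes, H2-DM exchanges the invariant chain remnant for peptide, and H2-O restrains H2-DM. Ciita is the coactivator that sets the level of class II transcription in dendritic cells, B cells and macrophages, and immature myeloid progenitors are known to make little of these proteins.

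RNA was sequenced from mouse fetal liver progenitors immortalized with Hoxb8 and grown in β-estradiol, in 15 libraries of 5 groups of 3. All cells were infected with a retrovirus for 2 days and sorted for GFP. The wild-type line (hi-Ddx41+/+) carried the empty vector (WT empty). The heterozygous line (hi-Ddx41+/-) carried the empty vector (Het empty) or a vector for DDX41, either wild-type (Het DDX41) or with the substitution G173R (Het G173R) or R525H (Het R525H). Each genotype is represented by cells under a single line name, so the Ddx41 genotype and any other difference between the lines cannot be told apart, and neither the strain nor the MHC haplotype is given in the sources used here. DDX41 is a DEAD-box RNA helicase whose germline variants are linked to myeloid malignancy, and the vector groups ask whether wild-type or variant DDX41 changes the heterozygous cells. The labels do not say whether the 3 libraries of a group were grown separately, and the p-values below then reflect only the spread among these libraries, which could be technical.

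Total expected counts ranged from 22104066 to 49145873 per library. Ddx41 was at 59.3 ± 3.9 CPM (read counts brought to the same library size, SD, n = 3) in WT empty and at 30.3 ± 2.3 in Het empty, and at 32.1 to 33.3 in the 3 groups with a DDX41 vector. The grouping is that of the titles. In 12 of the 15 samples the file is named with another code than the title, and these 12 are all the heterozygous libraries, so comparisons between vectors rest on the titles while the line of each library does not. The libraries numbered 3 stood apart: in 12.2% of the genes tested, library 3 was the highest of its group in all 5 groups. Among the markers of the labelled cell type, Kit and Cd34 were detected in all libraries, with group means of 441 to 553 and 1467 to 1614 CPM.

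The promoters of 5 members of the family are shown because class II genes are known to share a control element there: an X box, bound by RFX and CREB proteins, followed by a Y box, bound by NF-Y, on which Ciita acts. Each line gives the 120 bases before the annotated start from the RefSeq set of build GRCm38.p6, in the direction of the gene, with matches to the X and Y letters in capitals. The H2-Aa stretch is chr17:34287824-34287943 on the minus strand, and the others are on the plus strand at chr17:34153071-34153190 (H2-DMb1), chr17:34305747-34305866 (H2-Eb1), chr17:34238785-34238904 (H2-Ob) and chr17:34092259-34092378 (H2-Oa).
H2-Aa: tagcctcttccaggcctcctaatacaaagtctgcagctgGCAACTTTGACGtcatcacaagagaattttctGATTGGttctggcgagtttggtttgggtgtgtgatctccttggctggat
H2-DMb1: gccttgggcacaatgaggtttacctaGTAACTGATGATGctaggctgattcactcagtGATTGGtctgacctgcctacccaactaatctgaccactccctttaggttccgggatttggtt
H2-Eb1: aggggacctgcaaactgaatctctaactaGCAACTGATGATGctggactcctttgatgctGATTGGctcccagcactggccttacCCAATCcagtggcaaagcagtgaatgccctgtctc
H2-Ob: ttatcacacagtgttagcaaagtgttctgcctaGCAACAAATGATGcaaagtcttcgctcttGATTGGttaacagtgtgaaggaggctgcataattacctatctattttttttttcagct
H2-Oa: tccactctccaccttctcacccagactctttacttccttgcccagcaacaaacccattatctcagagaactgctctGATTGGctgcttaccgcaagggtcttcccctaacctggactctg

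The X letters searched were GNAAC, then 2 or 3 bases of any kind, then TGANG, and the Y letters were GATTGG, on both strands of the 250 bases before the start. No X match overlapped a Y match in these promoters. The X letters were chosen with these promoters in view, so the matches are a description. An X match followed by a Y match on the same strand, 10 to 30 bases apart, stood in the promoters of H2-Aa, H2-DMb1, H2-Eb1 and H2-Ob, with gaps of 20, 19, 18 and 16 bases. Their X matches began 81 to 94 bases before the start. H2-Oa held a Y match 44 bases before its start and no X match, and of the 2 H2-DMa windows the second held a Y match alone. Over all 32851 windows, 1.49% held an X match, 14.6% a Y match and 15 windows (0.0457%) the X and Y order. The other 11 of these 15 windows include BC051142, which lies in the class II region itself. RefSeq windows were found for 6 of the 9 genes; H2-Ab1, Cd74 and Ciita were not among them. Promoters with the X and Y order belonged to genes at quite different RNA levels, from H2-Eb1 with 3 counts in all libraries to H2-DMb1 with 26 to 65.7 counts in each.

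Most of the pathway was at low levels in these progenitors, and H2-DMa and H2-Oa, alpha chains of the peptide-editing molecules, were the most abundant of the 9 genes. On the TPM scale, which accounts for gene length, the means over 15 libraries were 18.2 for H2-DMa, 7.57 for H2-Oa, 4.63 for Cd74, 1.35 for H2-Ab1, 1.18 for H2-DMb1 and 0.467 for H2-Ob. H2-Aa, which encodes the alpha chain that pairs with the H2-Ab1 product, was at 0.0333 TPM, Ciita at 0.024 and H2-Eb1, the beta chain of the I-E molecule, at 0.006. Neighbours in this order overlapped in their ranges over libraries, as H2-Ab1 (0 to 2.97 TPM) and H2-DMb1 (0.67 to 2.34 TPM) did, with 2 exceptions. Every library of H2-DMa (13.4 to 28.4 TPM) was above every library of H2-Oa (4.26 to 12.6 TPM), and every library of H2-Ob (0.14 TPM or more) was above those of H2-Aa (0.13 TPM or less).

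H2-Aa, H2-Eb1 and Ciita had too few counts to be tested. H2-Aa had 12 counts in all 15 libraries together and was at 0 in 9 of them. H2-Eb1 had 3 counts in all and was at 0 throughout Het empty, Het G173R and Het R525H, where 0 counts allow up to 0.0306, 0.0321 and 0.0312 CPM per group. Ciita had 76 counts in all, with group means between 0.0725 and 0.26 CPM, and its highest value was 0.571 CPM in library 3 of Het DDX41. These limits cover counting error only. A small or moderate difference in these 3 genes could not be seen at this depth, and none was tested. The other 6 genes passed the filter on low counts and were tested. H2-Ab1, with 2 counts in WT empty, passed it only through the heterozygous libraries, where it was higher.

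**Figure D1:**
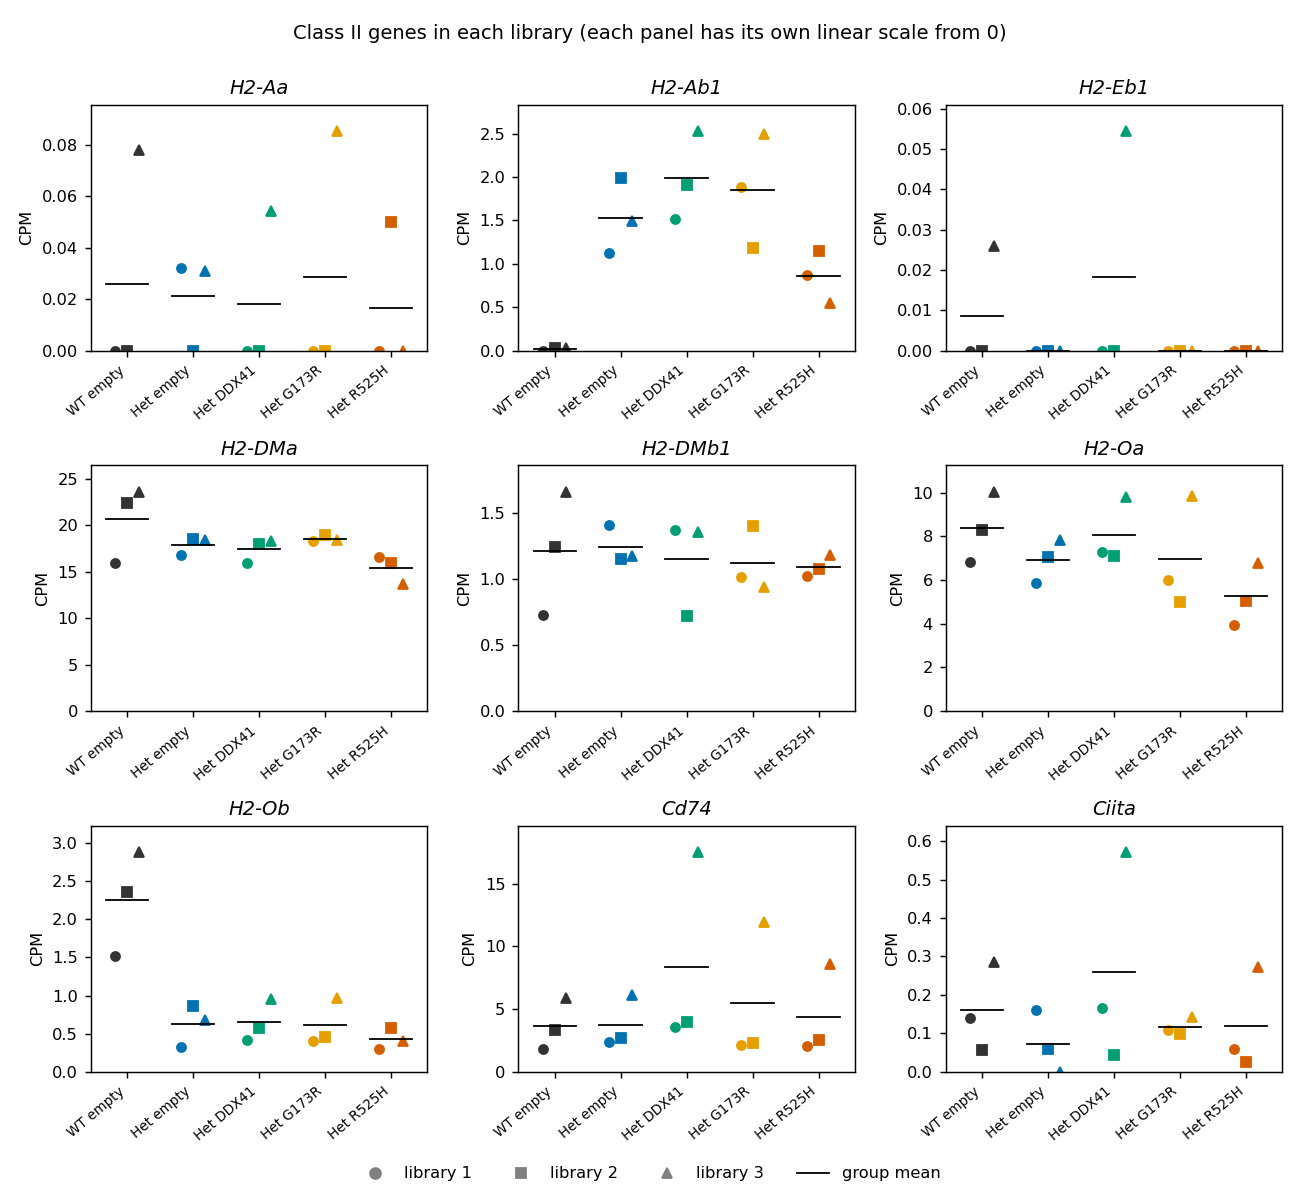
CPM of the 9 class II genes in each of the 15 libraries, with 1 panel per gene on its own linear scale from 0, the 5 groups along the horizontal axis, the marker shape giving the library number and the line the group mean. H2-Ab1 was at 0 to 0.0277 CPM in WT empty and at 0.545 to 2.53 CPM in the 12 heterozygous libraries, while H2-Ob was at 1.52 to 2.88 and 0.292 to 0.965 CPM; in the Cd74 panel the triangles of library 3 are the highest in each group.

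H2-Ab1, the beta chain of the I-A molecule, was at the limit of detection in the wild-type line and present in all 12 heterozygous libraries. Its counts in libraries 1 to 3 of WT empty were 0, 1 and 1, and those of Het empty were 35, 69 and 48. Het DDX41 had 73, 87 and 93 counts. Het G173R had 52, 36 and 88, and Het R525H had 30, 46 and 12. Every heterozygous library lay above every wild-type library. Means were 0.0179 ± 0.0155 CPM in WT empty (SD, n = 3 here and below), 1.53 ± 0.44 in Het empty, 1.99 ± 0.51 in Het DDX41, 1.85 ± 0.66 in Het G173R and 0.857 ± 0.304 in Het R525H.

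The ratio of H2-Ab1 to the 2 counts of WT empty was 85.3 in Het empty (95% interval 23.2 to 711), 107 in Het DDX41 (29.3 to 888), 104 in Het G173R (28.3 to 864) and 50.4 in Het R525H (13.54 to 422). These intervals cover counting error only. Between libraries, H2-Ab1 rose in Het empty by a log2 difference of 6.15 (SE 0.60, edgeR quasi-likelihood adjusted p = 2.04e-05), with fitted values that depend on the prior count because WT empty holds so few reads. The 3 other heterozygous groups gave 6.52, 6.42 and 5.33 against WT empty in the order DDX41, G173R and R525H, with edgeR adjusted p of 1.1e-05, 1.29e-05 and 8.77e-05. The 4 comparisons share the WT empty libraries and are not independent of each other. The alpha chain gene H2-Aa had 3 counts in WT empty and 2, 2, 3 and 2 in the heterozygous groups, so the counts of the pair's 2 genes were far apart in the heterozygous line.

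H2-Ob, the beta chain of the H2-O molecule that restrains peptide exchange, was lower in the heterozygous line. It was at 1.52, 2.35 and 2.88 CPM in libraries 1 to 3 of WT empty and at 0.32, 0.865 and 0.682 in Het empty. Het DDX41 had 0.417, 0.57 and 0.951 CPM. Het G173R had 0.399, 0.457 and 0.965, and Het R525H had 0.292, 0.576 and 0.409. Every heterozygous library was below the lowest wild-type one. H2-Ob fell in Het empty, with a log2 difference of -1.84 (SE 0.46, edgeR adjusted p = 0.0404). The differences from WT empty were -1.81 in Het DDX41, -1.87 in Het G173R and -2.38 in Het R525H, with edgeR adjusted p of 0.0368, 0.0378 and 0.00719.

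With libraries 1 and 2 alone, H2-Ob had a log2 difference of -1.69 in Het empty (adjusted p = 0.097), and H2-Ab1 kept its call in the 4 groups. The H2-Ob call in Het R525H was kept in all 13 alternatives run, and those in Het empty, Het DDX41 and Het G173R were lost in 7, 5 and 5 of 13. Without library 2 or 3 of WT empty, the edgeR adjusted p was 0.105 and 0.153 in Het empty, 0.0856 and 0.134 in Het DDX41, and 0.0928 and 0.139 in Het G173R. The call was also lost without library 1, 2 or 3 of Het empty (0.164, 0.0635 and 0.107), without library 1 or 2 of Het DDX41 (0.17 and 0.144) and without library 1 or 2 of Het G173R (0.16 and 0.162).

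**Figure D2:**
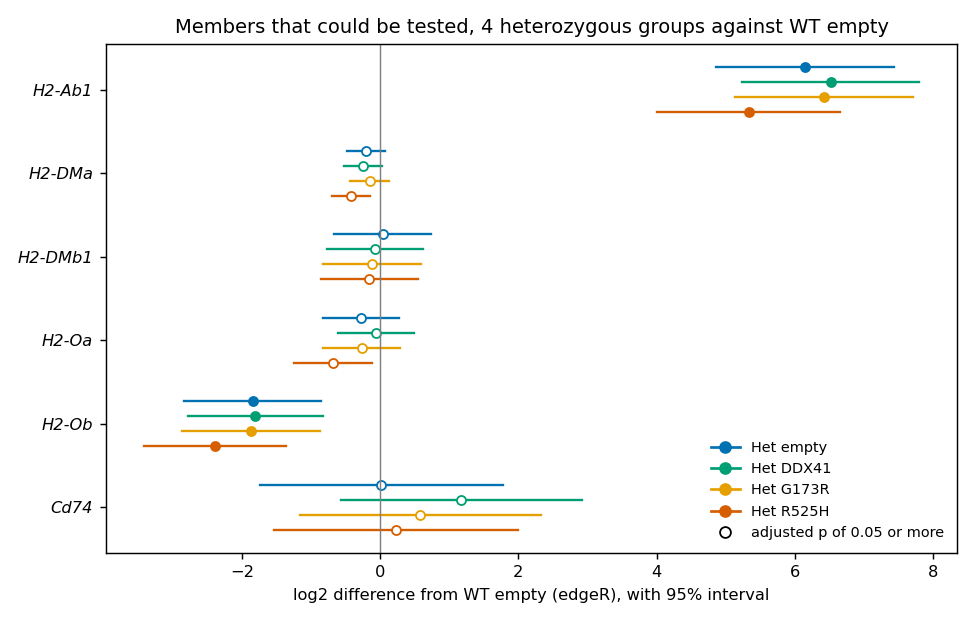
Log2 differences from WT empty, with 95% intervals from edgeR, of the 6 tested class II genes in the 4 heterozygous groups; filled points have an adjusted p under 0.05. The H2-Ab1 points lie between 5.33 and 6.52, the H2-Ob points between -2.38 and -1.81, and the points of the other 4 genes are open.

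So 2 of the 6 tested genes were called against WT empty in each heterozygous group, 1 higher and 1 lower, beside 3.66% of all 14548 tested genes in Het empty, 4.54% in Het DDX41, 3.79% in Het G173R and 6.68% in Het R525H. The higher one, H2-Ab1, entered the test only through the group in which it was called, so 2 of 6 depends on the filter. With no filter beyond 1 count, 2 of the 9 genes were called in each group. Among all genes tested, 3.44% had all 12 heterozygous libraries above the 3 of WT empty, as H2-Ab1 did, and 3.92% had all 12 below, as H2-Ob did. In bulk RNA, fewer cells of a type and less RNA per cell cannot be told apart.

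H2-Oa, the alpha chain of H2-O, did not pass the test in any heterozygous group in the model that holds only the groups. In WT empty it was at 6.83, 8.31 and 10.05 CPM in libraries 1 to 3, and its mean was 8.4 ± 1.61. Het empty had 5.89, 7.06 and 7.85 CPM, a log2 difference of -0.28 (95% interval -0.83 to 0.28, edgeR adjusted p = 0.863). Het R525H had the lowest level, 3.97, 5.03 and 6.76 CPM, with all 3 libraries below WT empty, where 11.8% of all genes lay in that way. Its log2 difference from WT empty was -0.68 (SE 0.26, edgeR adjusted p = 0.162). With only libraries 1 and 2 it was -0.75, with an adjusted p of 0.0184, while leaving out 1 library gave -0.90 to -0.52 with adjusted p of 0.0958 to 0.439, and 11 of 13 alternatives gave no call.

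The 2 chains of H2-O therefore stood in different proportions in the 2 lines, given here as a description with no test. The TPM of H2-Oa divided by that of H2-Ob was 9.69, 9.01 and 7.48 in the libraries of WT empty. It ranged from 13.2 to 47 in the 12 heterozygous libraries, with medians of 31 in Het empty, 27.7 in Het DDX41, 19.8 in Het G173R and 30.4 in Het R525H. Both ends of that range were in Het R525H. H2-Ob had only 9 to 35 counts in each heterozygous library, so these ratios are imprecise and their medians do not rank the groups. For H2-DM, the TPM of H2-DMa divided by the sum of its beta chain genes H2-DMb1 and H2-DMb2 was 5.53 to 7.07 in WT empty and 3.6 to 6.78 in the heterozygous libraries, which overlap.

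**Figure D3:**
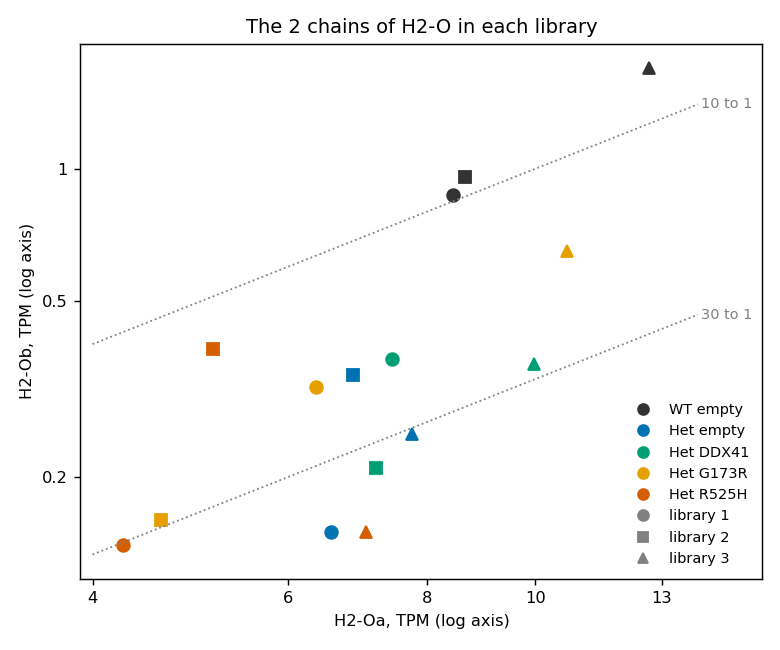
TPM of H2-Ob against TPM of H2-Oa in each of the 15 libraries, both on log axes, with colours for the 5 groups, marker shapes for the library number and dotted lines at ratios of 10 to 1 and 30 to 1. The 3 WT empty libraries lie above the 10 to 1 line, at ratios of 7.48 to 9.69, and the 12 heterozygous libraries lie below it, at 13.2 to 47.

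H2-DMa, the alpha chain of the peptide exchange factor, was the most abundant of the 9 genes and varied little. It was at 15.997, 22.4 and 23.6 CPM in libraries 1 to 3 of WT empty and at 16.8, 18.5 and 18.4 in Het empty, with a log2 difference of -0.21 (95% interval -0.49 to 0.07, edgeR adjusted p = 0.682). Het R525H had 16.6, 15.9 and 13.7 CPM. Its log2 difference from WT empty was -0.42 (SE 0.13, edgeR adjusted p = 0.0744), and its range overlapped that of WT empty through library 1 of the latter. Without that library the difference was -0.58, with an adjusted p of 0.00539, and DESeq2 on all libraries gave -0.42 with 0.0339. With libraries 1 and 2 alone it was -0.24, with an adjusted p of 0.294, and 10 of 13 alternatives gave no call. H2-DMb1 had means of 1.09 to 1.25 CPM over the 5 groups and log2 differences from WT empty of -0.16 to 0.04. H2-DMb1 shares sequence with its neighbour H2-DMb2, so its counts depend on how RSEM divided reads between them; H2-DMb2 was at 2.72 ± 0.32 CPM in WT empty and 3.2 ± 0.2 in Het empty.

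Cd74, the invariant chain, did not pass the test in any comparison between groups in the model that holds only the groups, and it varied widely within the groups. Libraries 1 to 3 had 1.83, 3.3 and 5.89 CPM in WT empty and 2.34, 2.65 and 6.14 in Het empty. In Het DDX41 they had 3.58, 3.95 and 17.5 CPM. In Het G173R they had 2.11, 2.32 and 11.98, and in Het R525H 2.04, 2.55 and 8.58. Library 3 was the highest in each of the 5 groups, at 2.3 to 5.41 times the mean of the other 2 libraries. H2-Oa was also highest in library 3 of each group, at 1.21 to 1.79 times the mean of the others. The share of all genes that did so, 12.2%, was given above, and this pattern was noticed in the data; what the number 3 stands for is not given in the sources used here.

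Against WT empty, the log2 differences of Cd74 were 0.01 in Het empty, 1.18 in Het DDX41, 0.58 in Het G173R and 0.23 in Het R525H (SE 0.81 to 0.82, edgeR adjusted p of 0.999, 0.552, 0.888 and 0.918). With libraries 1 and 2 alone they were -0.03, 0.56, -0.21 and -0.16, with adjusted p of 0.981, 0.251, 0.693 and 0.754, so 3 of the 4 changed sign without library 3.

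Whether DDX41 or its variants change these genes in the heterozygous line was asked against Het empty. Ddx41 itself was not called higher with any vector. Its log2 differences from Het empty were 0.13 with DDX41, 0.13 with G173R and 0.08 with R525H. How much DDX41 the vectors delivered can therefore not be told from these counts. None of the 6 tested genes was called with any vector, where 0%, 0% and 0.0137% of all genes were called for DDX41, G173R and R525H. The 18 log2 differences ran from -0.82 to 1.16, the lowest edgeR adjusted p was 0.999, and 0 had an unadjusted p under 0.05. DESeq2 and limma also called 0 of these genes. For H2-Ab1 the log2 difference from Het empty was 0.37 with DDX41 (95% interval -0.42 to 1.16), 0.27 with G173R (-0.52 to 1.07) and -0.82 with R525H (-1.64 to 0.01). For H2-Ob these were 0.04 (-0.97 to 1.04), -0.03 (-1.05 to 0.996) and -0.54 (-1.59 to 0.51). The WT empty level of H2-Ab1, 6.15 below Het empty on the log2 scale, lies outside its 3 intervals, and that of H2-Ob, from which Het empty differs by -1.84, lies outside its own. This takes the WT empty levels as points. For H2-Ob the difference of Het empty from WT empty has a 95% interval of -2.84 to -0.85. Set directly against WT empty, H2-Ob had 95% intervals of -2.78 to -0.83 with DDX41, -2.86 to -0.88 with G173R and -3.41 to -1.36 with R525H. These lie wholly below the WT empty level. The calls with DDX41 and G173R were each lost in 5 of 13 alternatives, as given above.

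Between the vectors, 0 of the 6 tested genes were called either, beside 0% of all genes for R525H against DDX41, 0% for G173R against DDX41 and 0.0825% for R525H against G173R. Of these 18 tests, 3 had an unadjusted p under 0.05, and the lowest edgeR adjusted p was 0.564. H2-Ab1 was at 0.545 to 1.15 CPM in Het R525H, below all libraries of Het DDX41 (1.52 to 2.53) and, by a small margin, of Het G173R (1.18 to 2.5). The log2 differences of Het R525H were -1.18 from Het DDX41 (SE 0.38, edgeR adjusted p = 0.921) and -1.09 from Het G173R (SE 0.38, edgeR adjusted p = 0.564). H2-Oa in Het R525H was also below all libraries of Het DDX41, with a log2 difference of -0.62 (SE 0.26, edgeR adjusted p = 1). All 3 libraries of Het R525H lay below those of Het DDX41 in 5.51% of all genes and below those of Het G173R in 5.28%. H2-DMa in Het R525H, at 13.7 to 16.6 CPM, was also below all libraries of Het G173R (18.3 to 18.9; log2 difference -0.27, edgeR adjusted p = 0.804). It was below all libraries of Het empty as well (16.8 to 18.5; -0.22, adjusted p = 1), where 5.22% of all genes lay in that way.

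Along the chromosome, H2-Ob and H2-Ab1 are neighbours. In the RefSeq order from Rxrb to Notch4, which spans the class II region, 32 genes are listed, 30 are in the tables and 16 were tested. H2-Ob and H2-Ab1 were the 2 genes called in all 4 heterozygous groups, 1 lower and 1 higher, and only the non-coding gene Gm20506 is listed between them. Tap2, the transporter subunit on the far side of H2-Ob, had a log2 difference of -0.11 in Het empty against WT empty (edgeR adjusted p = 0.956), and H2-Aa, on the far side of H2-Ab1, was too low to test. Further on, the butyrophilin-like genes Btnl2 and Btnl1 had log2 differences of -2.20 and -1.61 at under 1 CPM (edgeR adjusted p = 0.452 and 0.0672). Of the other tested genes of the region, Psmb9 was called in Het R525H alone.

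**Figure D4:**
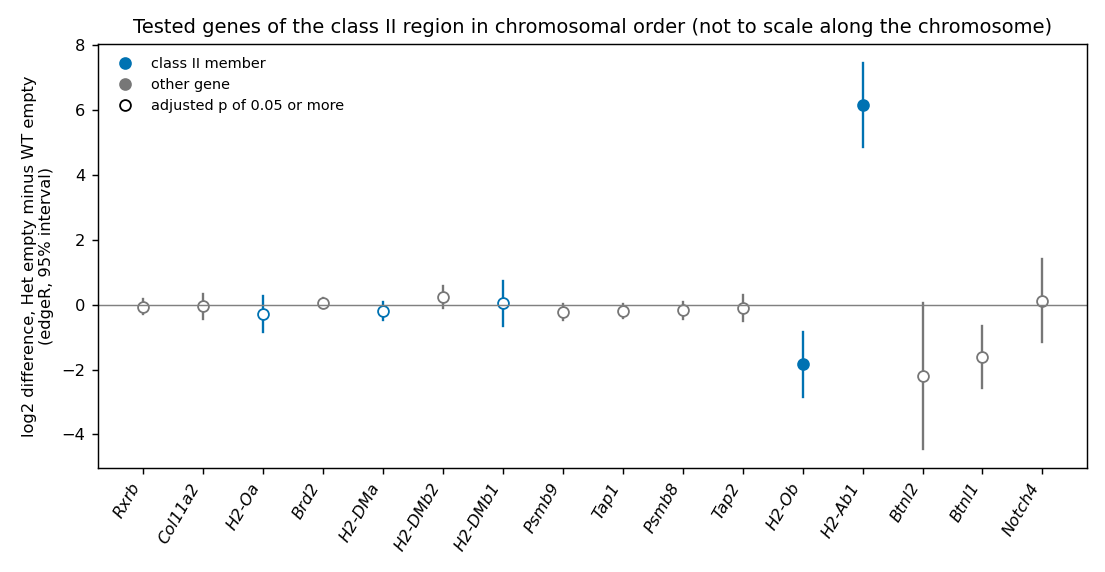
Log2 difference of Het empty from WT empty, with 95% intervals from edgeR, for the 16 tested genes of the class II region in chromosomal order, which is not to scale; blue marks the class II genes described here and filled points an adjusted p under 0.05. H2-Ob at -1.84 and H2-Ab1 at 6.15 are the filled points, and they stand side by side.

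Few other genes of the class II pathway passed the test, as among all genes tested. Of all genes, 3.66% were called against WT empty in Het empty, 4.54% in Het DDX41, 3.79% in Het G173R and 6.68% in Het R525H. Of 22 further genes (other class II loci, endosomal proteases, turnover factors, co-stimulatory molecules and the proteins that bind the X and Y boxes) 20 were tested, and 1 was called in each heterozygous group against WT empty. This was Ctsl, an endosomal protease that can degrade the invariant chain, at 3.87 ± 0.73 CPM in WT empty and 11.8 ± 1.6 in Het empty. Its log2 difference was 1.61 in Het empty (SE 0.20, edgeR adjusted p = 0.000176), 1.71 in Het DDX41, 1.73 in Het G173R and 1.298 in Het R525H. The median log2 difference of the 20 was -0.04 in Het empty and 0.11, 0.02 and 0.004 in the 3 vector groups, beside -0.001 to -0.01 for all genes. The 20 went both ways, from -0.55 to 1.61 in Het empty and from -1.18 to 2.47 in Het DDX41. The highest of these was Ctss, another endosomal protease, at 0.109 ± 0.005 CPM in WT empty and 0.625 ± 0.311 in Het DDX41 (edgeR adjusted p = 0.0706). Rfx5, Rfxap and Rfxank, the subunits of the RFX complex that binds the X box, were well expressed at 27.3 ± 1.4, 8.93 ± 0.45 and 19.6 ± 0.4 CPM in WT empty and 26.4 ± 4.3, 10.2 ± 1.3 and 19.0 ± 0.8 in Het empty.

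The MHC class I pathway presents peptides from the cytosol. Of its 14 tested genes, 0 were called against WT empty in Het empty, Het DDX41 or Het G173R. In Het R525H 2 fell, beside 3.59% of all genes that did. The 2 were Psmb9, an immunoproteasome subunit, at a log2 difference of -0.55 (SE 0.11, edgeR adjusted p = 0.00755), and the peptide loading factor Tapbp, at -0.37 (SE 0.10, edgeR adjusted p = 0.042). The median of the 14 was -0.09, -0.07, 0.03 and -0.05 in the 4 groups in the order Het empty, Het DDX41, Het G173R and Het R525H. Of 10 genes on the route from interferon-gamma to Ciita, 8 were tested and 0 were called in these comparisons, beside 3.66% to 6.68% of all genes. Their medians were -0.03, 0.01, -0.04 and -0.02. Ifng itself was at 0 in all libraries. The class I chain H2-K1 was at 207 ± 34 CPM in WT empty and 243 ± 50 in Het empty, against 1.53 for H2-Ab1 in Het empty, so class I RNA was abundant where class II RNA was scarce.

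Markers of the cells that normally carry class II moved in part between the lines. The summed level of 10 dendritic cell markers was 343 to 393 CPM in WT empty and 214 to 261 in Het empty, most of it Flt3, which progenitors also express and which fell by 0.65 on the log2 scale (edgeR adjusted p = 0.000463); it was 246 to 261 in Het DDX41, 251 to 267 in Het G173R and 178 to 213 in Het R525H. Cd209a was at 0 in all libraries. Siglech and Clec9a were each at 0 in all libraries of Het empty and Het G173R and in 2 of the 3 of WT empty. The sum of 9 B cell markers was 70.2 to 77.4 CPM in WT empty, 53.7 to 66.5 in Het empty, 55 to 67.4 in Het DDX41, 57 to 63.8 in Het G173R and 49.4 to 52.6 in Het R525H. Cd79b fell (log2 difference -0.94 in Het empty, edgeR adjusted p = 0.0155). Pax5 was at 0 in all heterozygous libraries and in 2 of the 3 of WT empty.

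The sum of 8 macrophage markers was 255 to 411 CPM in WT empty, 190 to 231 in Het empty, 209 to 266 in Het DDX41, 198 to 266 in Het G173R and 226 to 291 in Het R525H. Adgre1 made up most of the WT empty sum and fell by 0.96 on the log2 scale in Het empty (edgeR adjusted p = 0.0335). The other 2 tested macrophage markers had higher means in Het empty: Csf1r at 9.64 ± 1.41 and 11.6 ± 1.3 CPM, and Cd14 at 45.1 ± 8.0 and 57.6 ± 1.8. Cd14 rose in Het R525H, to 79.0 ± 6.8 CPM (log2 difference 0.81, edgeR adjusted p = 0.000515). C1qa and Mertk were at 0 in all libraries. The 6 T cell markers summed to 0.617 to 5.44 CPM over all libraries. The summed markers of dendritic cells and B cells were thus lower in each heterozygous group, in the direction of H2-Ob and opposite to H2-Ab1. Their part in either result was not tested.

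Some of the 9 genes overlap others in the GENCODE M21 annotation: H2-Oa an antisense gene (BC051537), H2-DMa the gene Brd2 on the other strand, and Ciita the gene Dexi. The libraries were stranded, but whether the counting used strand is not given in the sources used here, so reads of such pairs could not be separated with certainty. BC051537 was at 0.0992 CPM in WT empty and 0.0594 in Het empty, beside 8.4 and 6.93 for H2-Oa. Brd2 was at 206 and 214 CPM beside 20.7 and 17.9 for H2-DMa.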

How the data were processed

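The authors deposited 1 table per sample, made with RSEM per the submitters' processing notes; neither its version nor the aligner or genome build is given in the sources used here. Each table holds expected counts, which the authors did not normalize, and TPM, which per the file headers is scaled for length and library by the authors; TPM served only to compare levels between genes. Other columns, including the deposited lengths, gave only a median effective length.

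Expected counts were rounded and tested with edgeR 4.0.16 (R 4.3.3): filterByExpr, TMM, and 1 quasi-likelihood model over all 15 libraries with the group as its only term. Each of 10 contrasts was adjusted by Benjamini-Hochberg over 14548 genes, and a gene was called at an adjusted p under 0.05. CPM uses TMM-scaled totals, n = 3 libraries. A total of 22104066 counts or more limits what can be seen below about 3 counts per group. Count ratios have exact binomial intervals of 95%. The script was tested on simulated data.

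Alternatives were RLE factors, DESeq2 1.42.0, limma voom (limma 3.58.1), no filter, a replicate block, only the 2 groups compared, libraries 1 and 2 only, and each library left out. All 9 genes are described. Of the further class II genes, the class I genes and the interferon-gamma genes, the called ones are named and some others have values. Of the cell type markers, only some of the called genes are named. The genes, lists and alternatives were chosen with earlier results of these data known, and Brd2, BC051537, Btnl1, Btnl2 and Tap2 were named after their values were seen. A marker gene of the lists is not reported here.

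Replicate numbers were checked for pairing by the correlation, over genes, of deviations from group means in log CPM. All 3 correlations were above 0.1 for Het empty against WT empty (lowest 0.358), G173R against Het empty (0.181), R525H and G173R against DDX41 (0.321 and 0.28) and R525H against G173R (0.287).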

Additional observations from a re-analysis of the deposited data

How the results depend on the processing

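H2-Ab1 kept its call in all 13 alternatives of each comparison with WT empty, with log2 differences of 4.84 to 6.86 and adjusted p of 3.71e-08 to 0.00478. No log2 difference reversed among those of 4 genes followed across the alternatives. Against WT empty these were H2-Ab1 and H2-Ob in each heterozygous group, H2-DMa in Het R525H and Het DDX41, and H2-Oa in Het R525H. The others were Het R525H against each other heterozygous group for H2-Ab1 and against Het DDX41 for H2-Oa. The group comparisons of Cd74, with the sign changes given above, were not among them. The number of class II genes called against WT empty, 2 in each heterozygous group, was 1 in Het empty with libraries 1 and 2 only and 1 in Het empty, Het DDX41 and Het G173R when only the 2 groups compared were fitted. Leaving out 1 library gave 1 to 2 in these 3 groups and 2 to 3 in Het R525H. The cause was not tested. In the other 6 comparisons it was 0 throughout.

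With the replicate number as a block, 4 were called in Het R525H against WT empty, adding H2-DMa (-0.41, adjusted p = 0.0245) and H2-Oa (-0.69, 0.00379), and 3 in Het DDX41, adding Cd74 (0.95, 0.0161); in neither do the numbers pair the libraries by the check used. On log2(CPM + 1), a measure computed first and then replaced, 8 of 10 comparisons passed that check in place of 5, and these 2 did not pass on either measure. The block changed no call of these genes in the other comparisons. It raised the genes called over the whole table from 532 to 1352 in Het empty, 661 to 1887 in Het DDX41, 551 to 1453 in Het G173R and 972 to 2522 in Het R525H against WT empty. DESeq2 gave 804, 1053 and 840 in the first 3, libraries 1 and 2 only gave 1068, 1307, 1133 and 1904, and fitting only the 2 groups gave 396, 278 and 610 in the groups with DDX41, G173R and R525H. For R525H against Het empty, DDX41 and G173R the main counts of 2, 0 and 12 were 63, 59 and 141 with the block and 59, 36 and 117 with DESeq2. Genes under about 3 counts per group could not be assessed.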

Other observations

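Genes whose library-to-library pattern was most like that of a class II gene were ranked by Pearson's r of log2(CPM + 1) over 15 libraries after subtracting each group's mean, as a description. For H2-Ab1 they were Adgrg5, Siglecf and Crot, with r of 0.919, 0.882 and 0.876. For Cd74 they were Gstt1, Lims1 and Sqstm1, and for H2-Oa Kif1c, Aqp9 and Gys1, all 6 of which were highest in library 3 of all 5 groups, so these rankings rest on those libraries.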
